A study of Homo sapiens with 101 samples.

Results

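Autophagy carries cell material to the lysosome, and the genes of both were described here as a set of 36 in 2 established human colorectal cancer cell lines, SW480, grown from a primary tumour, and SW620, grown from a metastasis in a lymph node of that person. A member is a gene of a list chosen for autophagy and lysosome genes, read on its brightest Affymetrix probe set over all arrays. All 36 listed genes were found, of 19775 genes measured. RNA was taken from cells with a short hairpin RNA against CDK5, HRAS, MAP2K1, MAP2K2, MAPK3 or NGFR, from cells with a non-target hairpin, from cells with an empty vector and from non-transduced cells. Each of these 9 treatments was given to both lines, which makes 18 groups and 101 arrays. The CDK5 knockdown in SW620 held 5 arrays because its replicate 1 is absent, the 2 non-transduced groups held 3 arrays each and the other 15 groups 6 each. The 24 arrays with an empty vector or a non-target hairpin, called vector controls below, were the comparison for all 6 knockdowns, so the 6 comparisons share their controls. The labels give 1 hairpin code for each target other than HRAS. For HRAS the code of replicate 1 differs from that of replicates 3 to 6, and replicate 2 carries none. What the loss of a target does and what its hairpin does otherwise cannot be told apart with 1 hairpin. The knockdowns were meant to check a gene network that had been computed.

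In autophagy a membrane sac closes around cytoplasm and then fuses with a lysosome. A kinase complex around ULK1 starts the process, a lipid kinase complex with BECN1 and ATG14 marks the membrane, WIPI proteins bind that mark, and a conjugation system attaches proteins of the ATG8 family such as MAP1LC3B to the growing sac. Cargo receptors such as SQSTM1, also called p62, hold the cargo to those proteins, and hydrolases in the lysosome, kept acidic by a proton pump, digest it. TFEB, TFE3 and MITF are transcription factors that switch on many of these genes, and in colorectal cancer cells the pathway is best known as a supply of nutrients under stress.

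Levels are log2 values, and a change is the knockdown minus the vector controls of the same line and round on that scale, ± its standard error. Round here means the style of sample names, which sets apart replicate 1, replicate 2, replicates 3 to 6 and the non-transduced replicate 7. A change counts as a rise or a fall where its limma p, adjusted over all 19775 genes, is under 0.05. The median of the members' mean levels was 9.13, against 6.18 for all genes, and 35 members lay above that gene median. The shares of all genes set beside member counts were not matched for level. The part of level in the gap between members and all genes was not tested. Whether replicates 3 to 6 came from separate cultures is not in the labels, so a p-value may measure technical spread. The samples are bulk RNA, in which fewer cells of a kind and less RNA per cell cannot be told apart.

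Each targeted gene fell in its own knockdown when the lines were averaged, with log2 changes of -1.63 for CDK5, -1.30 for HRAS, -1.61 for MAP2K1, -1.87 for MAP2K2, -0.45 for MAPK3 and -1.98 for NGFR. In SW620 NGFR did not pass the test (-0.52, adjusted p = 0.136). HRAS changed by -1.86 in SW480 and by -0.74 in SW620, and that difference between the lines passed the limma test (1.13, adjusted p = 0.0369). There were 6 arrays that stood apart. In SW620 MAP2K1 knockdown replicate 2, MAPK3 knockdown replicate 2 and NGFR knockdown replicate 1 had a GAPDH 3′ minus 5′ difference of 2.95 to 6.04, against 0.049 to 1.47 on the other 98 arrays, a mark of degraded RNA. In SW480 the arrays of replicate 1 from the knockdowns of MAP2K2, MAPK3 and MAP2K1 lay 0.725, 0.526 and 0.361 of the way from SW480 to SW620 in the genes that set the lines apart, against at most 0.107 on the other SW480 arrays. The mean log2 level of 8 epithelial markers was 8.35 to 10.57 on knockdown arrays and 9.12 to 10.12 on vector controls. That of 5 fibroblast markers was 4.59 to 6.79 on knockdown arrays and 4.57 to 6.24 on vector controls, and that of 4 leukocyte markers was 4.23 to 6.14 on knockdown arrays and 4.70 to 5.45 on vector controls. In the HRAS knockdown 6 of 8 epithelial markers fell, beside 20.6% of all genes, with a median change of -0.57 over the list. The part of this shift in the results below was not tested.

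Promoter sequence was held for 29 of the 36 members, in RefSeq tables on GRCh38.p14 that give 250 bases before to 50 after each gene's start. The letters CACGTG, an E-box that reads the same on both strands and forms the core of the site known for TFEB, were in 8 of these 29 promoters (27.6%), against 7.26% of all 35116 promoters of the table. The longer TCACGTG, searched on both strands and always overlapping a CACGTG, was in the same 8 (27.6%), against 3.71% of all promoters. The table holds more promoters than the 19775 genes measured, and the shares among measured genes alone were not counted. The 8 were ATG14, ATG3, LAMP1, MCOLN1, CTSA, CTSD, NEU1 and ATP6V0D1. The promoters of SQSTM1 and WIPI1 are shown because these genes had the largest falls, and they hold no CACGTG in this window. Those of LAMP1, MCOLN1 and CTSA are shown because they hold 6, 2 and 2 copies. Capitals mark CACGTG, and the windows lie at chr5:179820655-179820954 on the plus strand for SQSTM1, chr17:68457447-68457746 on the minus strand for WIPI1, chr13:113296989-113297288 on the plus strand for LAMP1, chr19:7522374-7522673 on the plus strand for MCOLN1 and chr20:45891085-45891384 on the plus strand for CTSA.
SQSTM1 promoter: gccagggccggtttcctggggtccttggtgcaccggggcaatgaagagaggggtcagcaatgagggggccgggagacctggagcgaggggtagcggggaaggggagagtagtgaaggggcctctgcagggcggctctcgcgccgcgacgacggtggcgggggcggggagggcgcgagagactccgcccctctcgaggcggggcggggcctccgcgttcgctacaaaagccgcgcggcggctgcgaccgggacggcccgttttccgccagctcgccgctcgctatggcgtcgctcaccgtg
WIPI1 promoter: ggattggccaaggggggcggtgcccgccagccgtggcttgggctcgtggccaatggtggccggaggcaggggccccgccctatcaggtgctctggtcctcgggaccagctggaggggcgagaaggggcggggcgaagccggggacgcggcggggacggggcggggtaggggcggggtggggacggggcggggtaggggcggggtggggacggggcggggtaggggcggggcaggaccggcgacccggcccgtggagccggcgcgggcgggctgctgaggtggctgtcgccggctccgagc
LAMP1 promoter: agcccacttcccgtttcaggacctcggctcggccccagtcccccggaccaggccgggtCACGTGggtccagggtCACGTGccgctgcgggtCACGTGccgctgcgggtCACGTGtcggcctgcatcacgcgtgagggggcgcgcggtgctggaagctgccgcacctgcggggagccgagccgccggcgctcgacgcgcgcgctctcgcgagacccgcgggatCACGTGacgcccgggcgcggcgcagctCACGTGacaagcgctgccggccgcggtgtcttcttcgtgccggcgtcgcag
MCOLN1 promoter: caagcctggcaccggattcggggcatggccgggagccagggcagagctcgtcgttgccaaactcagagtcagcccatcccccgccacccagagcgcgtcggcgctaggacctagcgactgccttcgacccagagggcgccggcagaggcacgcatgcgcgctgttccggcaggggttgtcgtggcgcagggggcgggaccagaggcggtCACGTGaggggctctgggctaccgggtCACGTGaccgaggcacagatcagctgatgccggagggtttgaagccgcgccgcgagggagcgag
CTSA promoter: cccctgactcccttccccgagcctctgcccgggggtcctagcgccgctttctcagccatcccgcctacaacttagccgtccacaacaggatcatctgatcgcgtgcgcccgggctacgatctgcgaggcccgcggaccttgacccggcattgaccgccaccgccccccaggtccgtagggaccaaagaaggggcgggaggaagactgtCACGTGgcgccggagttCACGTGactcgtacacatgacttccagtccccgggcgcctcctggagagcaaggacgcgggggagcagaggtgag

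Before any knockdown the lines themselves differed in most members. In the vector controls, SW620 minus SW480, 25 of 36 members differed, 7 higher and 18 lower in SW620, beside 45.3% of all genes (23.2% higher and 22.1% lower). The lysosomal cholesterol carrier NPC2 (-2.35 ± 0.15, adjusted p = 2.83e-25) and CTSA (-1.83 ± 0.17, adjusted p = 1.56e-15), which protects NEU1 in the lysosome, were the furthest below SW480. GABARAPL2 (1.42 ± 0.13, adjusted p = 4.33e-17), an ATG8 protein, and ULK1 (0.92 ± 0.11, adjusted p = 2.58e-11) were the furthest above it. SQSTM1 was lower in SW620 by 1.05 ± 0.15 (adjusted p = 2.18e-09). That gap varied with the round, with mean levels of 10.40 in SW620 and 10.99 in SW480 in replicate 1, 10.64 and 10.61 in replicate 2 and 9.22 and 10.95 in replicates 3 to 6. Among the rest, the cathepsins CTSL (-1.74) and CTSD (-1.03) and MITF (-1.01) were also lower by more than 1. The non-target hairpin and the empty vector did not differ in any member (0 of 36, 2 at an unadjusted p under 0.05, 0.086% of all genes), and SQSTM1 differed between them by 0.05 ± 0.14 (adjusted p = 1.00).

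SQSTM1 had the largest change of any member in any knockdown averaged over the lines, a fall of 1.51 ± 0.12 in the CDK5 knockdown (adjusted p = 5.81e-17), to 35.2% of the vector controls. In SW480 its levels with the CDK5 hairpin were 9.63 in replicate 1, 10.29 in replicate 2 and 9.40, 9.37, 9.38 and 9.51 in replicates 3 to 6. The empty vector arrays of SW480 lay between 10.58 and 10.97 with a median of 10.94, and the non-target arrays between 10.48 and 11.40 with a median of 10.94. All 6 knockdown arrays of SW480 were below all 12 vector controls of the line, replicate 2 by the least. In SW620 the knockdown arrays stood at 8.44 in replicate 2 and at 7.69, 7.59, 7.68 and 7.68 in replicates 3 to 6. The empty vector arrays of SW620 lay between 9.15 and 10.67 with a median of 9.23, and the non-target arrays between 9.23 and 10.62 with a median of 9.26. Here too the groups did not overlap, and replicate 2 was high in knockdown and controls alike.

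The fall was 1.30 ± 0.17 in SW480 and 1.71 ± 0.18 in SW620, to 40.6% and 30.5% of control, and the difference between the lines, -0.41 ± 0.25, did not pass the test (adjusted p = 0.268). By round, the knockdown stood 1.35 below its controls in replicate 1 of SW480, 0.32 below in replicate 2 and 1.53 below in replicates 3 to 6. In SW620 it stood 2.20 below in replicate 2 and 1.57 below in replicates 3 to 6. Against non-transduced cells, at 11.23, 10.52 and 10.75 in SW480 and 9.58, 9.91 and 9.76 in SW620, the fall was 1.16 ± 0.21 (adjusted p = 1.33e-04). Among all 19775 genes SQSTM1 ranked 9 by size among the falls of this comparison, and it was the only member to change by 1 or more, which 0.399% of all genes did. Replicates 1 and 2 alone gave -1.42 with an adjusted p of 0.814.

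**Figure D1:**
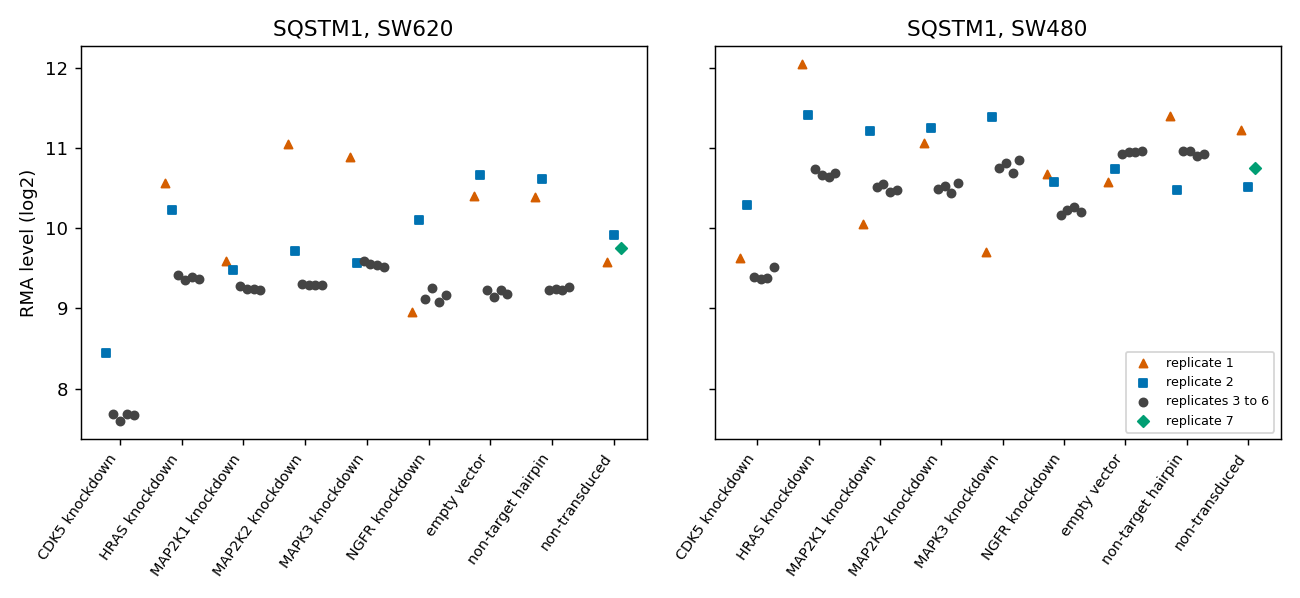
Log2 level of SQSTM1 on every array, by treatment, with SW480 and SW620 apart and replicates 1, 2, 3 to 6 and 7 marked. The CDK5 knockdown arrays, at 9.37 to 10.29 in SW480 and 7.59 to 8.44 in SW620, lie below every vector control of their line.

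The array carries 5 probe sets for SQSTM1, and they did not move alike in the CDK5 knockdown. The probe set used, 201471_s_at, fell, and 213112_s_at fell by 0.69 ± 0.13 (adjusted p = 3.13e-05 over all 54675 probe sets), by 0.88 in SW480 and by 0.50 in SW620. Of the other 3, all with lower mean signal, 244804_at changed by -0.21 ± 0.13 (adjusted p = 0.295) with a fall of 0.51 in SW620, 239004_at by 0.13 ± 0.06 (adjusted p = 0.157) and 242568_s_at by 0.08 ± 0.10 (adjusted p = 0.649). In SW480 the knockdown levels of 213112_s_at were 7.36 to 7.46 in replicates 3 to 6, against 8.49 to 8.66 on their vector controls. In replicates 1 and 2 they were 7.04 and 6.98, against 7.10 and 8.16 on the controls of replicate 1 and 6.80 and 7.10 on those of replicate 2. The separation of this probe set in SW480 therefore lies in replicates 3 to 6. The ending _s_at marks a probe set that can bind related transcripts. With all 5 probe sets averaged the fall of SQSTM1 was 0.44 ± 0.07 (adjusted p = 1.91e-06).

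In the other knockdowns SQSTM1 moved less on the probe set used, 201471_s_at. It fell in the NGFR knockdown (-0.46 ± 0.12, adjusted p = 0.00187) and in the MAP2K1 knockdown (-0.33 ± 0.12, adjusted p = 0.0486). The values were 0.10 ± 0.12 for HRAS (adjusted p = 0.539), -0.08 ± 0.12 for MAP2K2 (adjusted p = 0.696) and -0.04 ± 0.12 for MAPK3 (adjusted p = 0.869). With the NGFR hairpin SW480 arrays ranged from 10.17 to 10.68 with a median of 10.25, and SW620 arrays from 8.96 to 10.10 with a median of 9.15. Of these 12 arrays 8 were below every vector control of their line and round, and the SW620 arrays of replicates 3 to 6 lay 0.07 below theirs on average. With the MAP2K1 hairpin SW480 arrays ranged from 10.05 to 11.22 (median 10.50) and SW620 arrays from 9.23 to 9.60 (median 9.27). In SW620 the MAP2K1 arrays of replicates 1 and 2 were 0.80 and 1.16 below their controls and the 4 later ones 0.03 above, and in SW480 replicate 2 was 0.61 above. The MAP2K1 call ended without any 1 of replicates 3 to 6 (-0.36 to -0.35), without the degraded arrays (-0.28, adjusted p = 0.0672) and with the replicate number as a block (-0.33, adjusted p = 0.0639). The NGFR call ended with arrays averaged in pairs (-0.49, adjusted p = 0.0588) and against non-transduced cells (-0.11, adjusted p = 0.774). Other SQSTM1 probe sets moved otherwise. In SW480 213112_s_at changed by -0.99 with the NGFR hairpin and by -0.88 with that of CDK5. With the NGFR hairpin 239004_at (-0.55) and 242568_s_at (-0.88) also fell there. Averaged over the lines 213112_s_at fell for NGFR (-0.57) and MAP2K1 (-0.50). There 242568_s_at fell for NGFR (-0.56), MAPK3 (-0.34) and HRAS (-0.28), and 244804_at rose for HRAS (0.42) and NGFR (0.33).

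The levels of SQSTM1 in the remaining knockdowns overlapped those of the vector controls. HRAS knockdown arrays ranged from 10.64 to 12.06 in SW480 (median 10.72) and from 9.35 to 10.56 in SW620 (median 9.40). MAP2K2 arrays ranged from 10.44 to 11.26 (median 10.55) and from 9.29 to 11.06 (median 9.30), and MAPK3 arrays from 9.70 to 11.39 (median 10.78) and from 9.52 to 10.89 (median 9.56). The highest value of each group belongs to replicate 1 or 2. In replicates 3 to 6 all 3 of these knockdowns stood below every vector control of the round in SW480, by 0.26, 0.44 and 0.17 on average for HRAS, MAP2K2 and MAPK3. In SW620 they stood above every control of that round, by 0.16, 0.07 and 0.33 on average.

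In the CDK5 knockdown 13 of the 36 members fell and none rose, beside 19.4% of all genes (8.71% higher and 10.7% lower), and 16 members had an unadjusted p under 0.05. The median member change was -0.17, against 0.01 for all genes. Of 17 autophagy genes 6 fell and of 16 lysosome genes 6 fell, and 1 of 3 transcription factors did. Changes of 0.5 or more were reached by 5 members, beside 4.13% of all genes. Most members were brighter than the median gene, as given above, and these shares of all genes were not matched for level.

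Among initiation genes WIPI1, which binds the marked membrane, fell by 0.97 ± 0.15 (adjusted p = 1.03e-06), and ATG13, a subunit of the ULK1 complex, fell by 0.23. None of the 5 conjugation genes passed the test (-0.28 to 0.18). In the ATG8 family MAP1LC3B fell by 0.71 ± 0.11 (adjusted p = 3.79e-07) and GABARAPL1 by 0.40, while GABARAPL2 stood at -0.12. NBR1, the other cargo receptor of the set, fell by 0.34. No lysosomal membrane gene passed the test. In the lumen the cysteine protease CTSB fell by 0.63 ± 0.09 (adjusted p = 7.78e-08), and NPC2 (-0.44), the protease CTSL (-0.29) and PSAP (-0.28), the precursor of the saposins, fell as well. Of the proton pump, ATP6V1A fell by 0.57 and ATP6V1H by 0.26, both subunits of the outer sector, while ATP6V0D1 of the membrane sector stood at 0.13. TFE3 fell by 0.20. Fewer members were called in SW480 than in SW620, and the same held for all genes. In SW480 5 members fell, beside 8.06% of all genes (4.15% higher and 3.9% lower). In SW620 11 fell and 2, CTSA (0.78) and the lysosomal calcium channel MCOLN1 (0.33), rose, beside 24% of all genes (10.6% higher and 13.4% lower). SQSTM1 and ATP6V1A (-0.53 in SW480 and -0.61 in SW620) were called in each line. Against non-transduced cells 2 members fell, and WIPI1 (-0.54, adjusted p = 0.247), MAP1LC3B (-0.28, adjusted p = 0.423) and CTSB (0.12, adjusted p = 0.72) did not pass the test.

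In the HRAS knockdown 8 members rose and 8 fell, beside 36% of all genes (15.4% higher and 20.6% lower), so the members' share of 16 in 36 is near that of all genes. The median member change was 0.06, against 0.01 for all genes. WIPI1 fell the furthest, by 1.28 ± 0.15 (adjusted p = 2.05e-11), and CTSB by 1.01 ± 0.09 (adjusted p = 1.33e-16). These were the only members to change by 1 or more, as 1.63% of all genes did. With the HRAS hairpin WIPI1 ranged from 5.41 to 7.45 in SW480 (median 6.81) and from 4.80 to 6.37 in SW620 (median 6.24). The empty vector arrays ranged from 6.51 to 8.27 (median 8.17) in SW480 and from 6.62 to 7.76 (median 7.65) in SW620, and the non-target arrays from 6.37 to 8.33 (median 8.15) and from 6.79 to 7.70 (median 7.59). All 12 knockdown arrays were below every vector control of their line and round, with deviations from their mean of -1.91 to -0.75. Both probe sets of WIPI1 and all 5 of CTSB fell in this knockdown. Against non-transduced cells CTSB stood at -0.25 and did not pass the test (adjusted p = 0.255).

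MITF (-0.38) and GABARAPL2 (-0.38) came next among the falls, and NBR1 (-0.36), ATP6V1H (-0.24), ATP6V1A (-0.21) and ATG14 (-0.19), a subunit of the lipid kinase complex, also fell. The largest rises were those of CTSA (0.39 ± 0.14, adjusted p = 0.0243), the glycolipid hydrolase GLA (0.39 ± 0.07), MCOLN1 (0.34) and GABARAPL1 (0.33). ATG5 (0.33), part of the conjugation system, ATG13 (0.26), TFE3 (0.23) and WIPI2 (0.16) rose as well. CTSA with the HRAS hairpin ranged from 9.56 to 9.99 in SW620 (median 9.63), against 8.75 to 8.94 with the empty vector (median 8.83) and 8.86 to 9.31 with the non-target hairpin (median 8.91). In SW480 it ranged from 10.09 to 11.58 (median 10.50), against 10.10 to 10.82 (median 10.78) and 9.98 to 11.05 (median 10.80). The SW620 groups did not overlap, whereas in SW480 replicates 1 and 2 were above their controls by 1.01 and 0.96 and the 4 later arrays were below theirs. The CTSA call ended with only the non-target hairpin as control (0.32, adjusted p = 0.129) and without replicate 1 (0.30, adjusted p = 0.0509), and the count became 6 against non-transduced cells. Within lines 12 members changed in SW480, 6 each way, beside 26.2% of all genes (9.97% higher and 16.2% lower), and 11 in SW620, 4 higher and 7 lower, beside 31% of all genes (14.2% higher and 16.8% lower).

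The MAP2K1 knockdown changed 7 members, 6 lower and 1 higher, beside 15.2% of all genes (7.4% higher and 7.82% lower), and the median member change was -0.10, against -0.01 for all genes. CTSB fell by 0.68 ± 0.09 (adjusted p = 6.59e-09), WIPI1 by 0.64 ± 0.15 (adjusted p = 0.00115), MAP1LC3B by 0.41 and NBR1 by 0.35, and SQSTM1 and PSAP (-0.31) fell too. CTSB with this hairpin ranged from 10.39 to 11.37 in SW480 (median 10.65) and from 9.42 to 10.71 in SW620 (median 9.47). The vector controls of SW480 lay between 11.09 and 11.38 and those of SW620 between 10.33 and 11.33. Of the 12 knockdown arrays 11 were below every control of their line and round, the exception being SW480 replicate 1, an array that stood toward SW620. ATG14 was the only rise, 0.19 ± 0.05 (adjusted p = 0.00837). Its levels were 7.21 to 8.00 in SW620 with the MAP2K1 hairpin (median 7.91), against 6.84 to 7.53 with the empty vector and 6.94 to 7.53 with the non-target hairpin. In SW480 they were 6.83 to 7.77 (median 7.62), against 6.87 to 7.94 and 6.61 to 7.88, so the rise lay in SW620, where all 6 arrays were above their controls (0.44, against -0.06 in SW480). The ATG14 call ended against the empty vector alone (0.17, adjusted p = 0.0622) and with arrays averaged in pairs (0.20, adjusted p = 0.153). In SW480 alone 2 members passed the test, both lower, beside 6.54% of all genes (3.2% higher and 3.34% lower). In SW620 11 did, 4 higher and 7 lower, beside 19.1% of all genes (9.77% higher and 9.28% lower).

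The MAP2K2 knockdown changed 9 members, 4 higher and 5 lower, beside 19.2% of all genes (7.99% higher and 11.2% lower), with a median member change of -0.05, against 0.00 for all genes. WIPI1 fell by 0.77 ± 0.15 (adjusted p = 5.72e-05), CTSB by 0.48, ULK1 by 0.32 and MAP1LC3B by 0.28, and NBR1 fell by 0.23. WIPI1 ranged from 5.29 to 7.87 in SW480 (median 7.78) and from 4.71 to 7.29 in SW620 (median 6.71), against the ranges of the vector controls given above. From the mean of its controls SW480 replicate 1, an array that stood toward SW620, deviated by -1.82 and SW620 replicate 2 by -1.99, while SW620 replicate 1 was 0.50 above, and the other 9 arrays were all below. The rises were those of GLA (0.24 ± 0.07, adjusted p = 0.0115), ATG16L1 of the conjugation system (0.22, adjusted p = 0.0499), MCOLN1 (0.20) and ATG14 (0.16). GLA ranged from 9.40 to 10.13 in SW620 (median 10.04), against 8.80 to 9.67 with the empty vector and 8.74 to 9.78 with the non-target hairpin. In SW480 it ranged from 9.58 to 10.19 (median 10.14), against 9.03 to 10.34 and 9.0 to 10.36. All 6 SW620 arrays were above their controls and 4 of 6 SW480 arrays were below theirs. The GLA call ended without replicate 2 (0.13, adjusted p = 0.114). No member passed the test in SW480 (0 of 36 by limma, 6 at an unadjusted p under 0.05, beside 5.17% of all genes, 2.07% higher and 3.09% lower), and 9 did in SW620, 4 higher and 5 lower, beside 23.2% of all genes (10.5% higher and 12.7% lower).

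The MAPK3 knockdown changed 9 members, 2 higher and 7 lower, beside 25.6% of all genes (11.6% higher and 14% lower), and the median member change was -0.10, against 0.00. WIPI1 fell by 0.90 ± 0.15 (adjusted p = 1.35e-06), PSAP by 0.53, MAP1LC3B by 0.49 and NBR1 by 0.45. HEXA, a subunit of a lysosomal hexosaminidase, fell by 0.36, MITF by 0.23 and WIPI2 by 0.22. CTSB, lower in the other 5 knockdowns, stood at -0.07 ± 0.09 (adjusted p = 0.604), and 2 of its 5 probe sets, the dimmest, fell. WIPI1 ranged from 6.37 to 7.78 in SW480 (median 7.66) and from 3.97 to 7.36 in SW620 (median 6.10). Of the 12 arrays 11 were below every control of their line and round. In SW620 replicate 2, an array of degraded RNA, deviated by -2.73 from the mean of its controls, and replicate 1 was 0.57 above. The rises were those of ATG5 (0.20 ± 0.07, adjusted p = 0.0482) and ATG14 (0.15). ATG5 ranged from 9.23 to 10.06 in SW620 (median 9.77), against 9.04 to 9.60 and 8.94 to 9.75, and from 8.26 to 9.74 in SW480 (median 9.54), against 8.27 to 9.60 and 8.13 to 9.53 on empty vector and non-target arrays. The ATG5 groups overlapped in both lines. With its probe sets averaged ATG5 turned to -0.31 ± 0.07 (adjusted p = 2.05e-04), and without the degraded arrays it stood at 0.12 (adjusted p = 0.182). In SW480 6 members changed, 1 higher and 5 lower, beside 10.7% of all genes (4.21% higher and 6.46% lower), and in SW620 13, 5 higher and 8 lower, beside 29.8% of all genes (13.9% higher and 15.9% lower).

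The NGFR knockdown changed 12 members, 5 higher and 7 lower, beside 28.7% of all genes (14.1% higher and 14.6% lower), with a median member change of -0.01, against 0.00. ATG13 fell the furthest, by 0.74 ± 0.07 (adjusted p = 1.08e-13), a member that rose by 0.26 in the HRAS knockdown. WIPI1 fell by 0.67 ± 0.15 (adjusted p = 2.54e-04), CTSB by 0.65, and ATG7, the activating enzyme of the conjugation system, by 0.48 ± 0.09 (adjusted p = 7.08e-06). HEXA (-0.45), SQSTM1 and MITF (-0.22) fell too. ATG13 ranged from 6.72 to 8.26 in SW480 (median 6.87) and from 6.94 to 8.53 in SW620 (median 7.12). The empty vector arrays ranged from 8.02 to 8.82 and from 7.37 to 9.08, and the non-target arrays from 7.85 to 8.86 and from 7.34 to 9.07. All 12 knockdown arrays were below every control of their line and round, and all 3 probe sets of ATG13 fell. The probe set used ends in _x_at, which marks probes that can bind other transcripts.

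ATG14 had the largest rise of the NGFR knockdown, 0.42 ± 0.05 (adjusted p = 6.63e-10). It ranged from 7.36 to 8.36 in SW480 (median 8.29), against 6.87 to 7.94 on empty vector arrays and 6.61 to 7.88 on non-target arrays. In SW620 it ranged from 7.16 to 7.75 (median 7.70), against 6.84 to 7.53 and 6.94 to 7.53. All 12 arrays were above every control of their line and round. WIPI2 (0.29), TFE3 (0.23), ATG5 (0.21) and ATP6V1A (0.21) rose as well, and the calls of TFE3 and ATG5 ended when all probe sets were averaged (0.06 for each). In SW480 17 members changed, 9 higher and 8 lower, beside 24% of all genes (13.1% higher and 10.9% lower). In SW620, where NGFR itself did not pass the test, 16 changed, 5 higher and 11 lower, beside 26.3% of all genes (12.9% higher and 13.4% lower).

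Over the 6 knockdowns, which share their controls, 25 members (69.4%) passed the test at least once when the lines were averaged, as did 62.4% of all genes. WIPI1 fell in all 6, CTSB and NBR1 in 5 each and MAP1LC3B in 4, and SQSTM1, MITF and PSAP in 3 each. Falls in at least 4 knockdowns were found for 11.1% of members and 6.22% of all genes, and in at least 3 for 19.4% and 11.6%. Most of these falls did not pass the test in SW480 alone. There WIPI1 fell with the HRAS hairpin only (-1.07, the other 5 at -0.64 to -0.17), CTSB with those of HRAS, MAP2K1 and NGFR, NBR1 with that of MAPK3 only and MAP1LC3B with none. Against non-transduced cells, averaged over the lines, no fall of these 4 members passed the test other than that of WIPI1 with the HRAS hairpin (-0.85 ± 0.25, adjusted p = 0.0118). ATG14 rose in 4 and fell in 1, ATG5 rose in 3, and GLA and MCOLN1 rose in 2 each. Rises in at least 3 knockdowns were found for 5.56% of members and 8.26% of all genes. The 6 members TFE3, ATG13, ATG14, WIPI2, GABARAPL1 and ATP6V1A passed the test in both directions in different knockdowns (16.7%, against 7.96% of all genes). The 11 that never passed it with the lines averaged were TFEB, BECN1, UVRAG, ATG3, ATG12, LAMP1, LAMP2, NPC1, CTSD, NEU1 and ATP6V0D1. Within single lines some changes of UVRAG, ATG3, ATG12, LAMP1, NPC1 and ATP6V0D1 did pass it. With the NGFR hairpin ATG12 rose by 0.43 in SW480 and changed by -0.61 in SW620, and NPC1 moved likewise (0.73 and -0.47). TFEB lay between -0.12 and -0.06 in the 6 averaged comparisons, but in SW620 it fell with the HRAS hairpin (-0.33 ± 0.08, adjusted p = 8.42e-04), against 0.09 in SW480, and that difference between the lines passed the test (-0.41 ± 0.11, adjusted p = 0.00599).

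**Figure D2:**
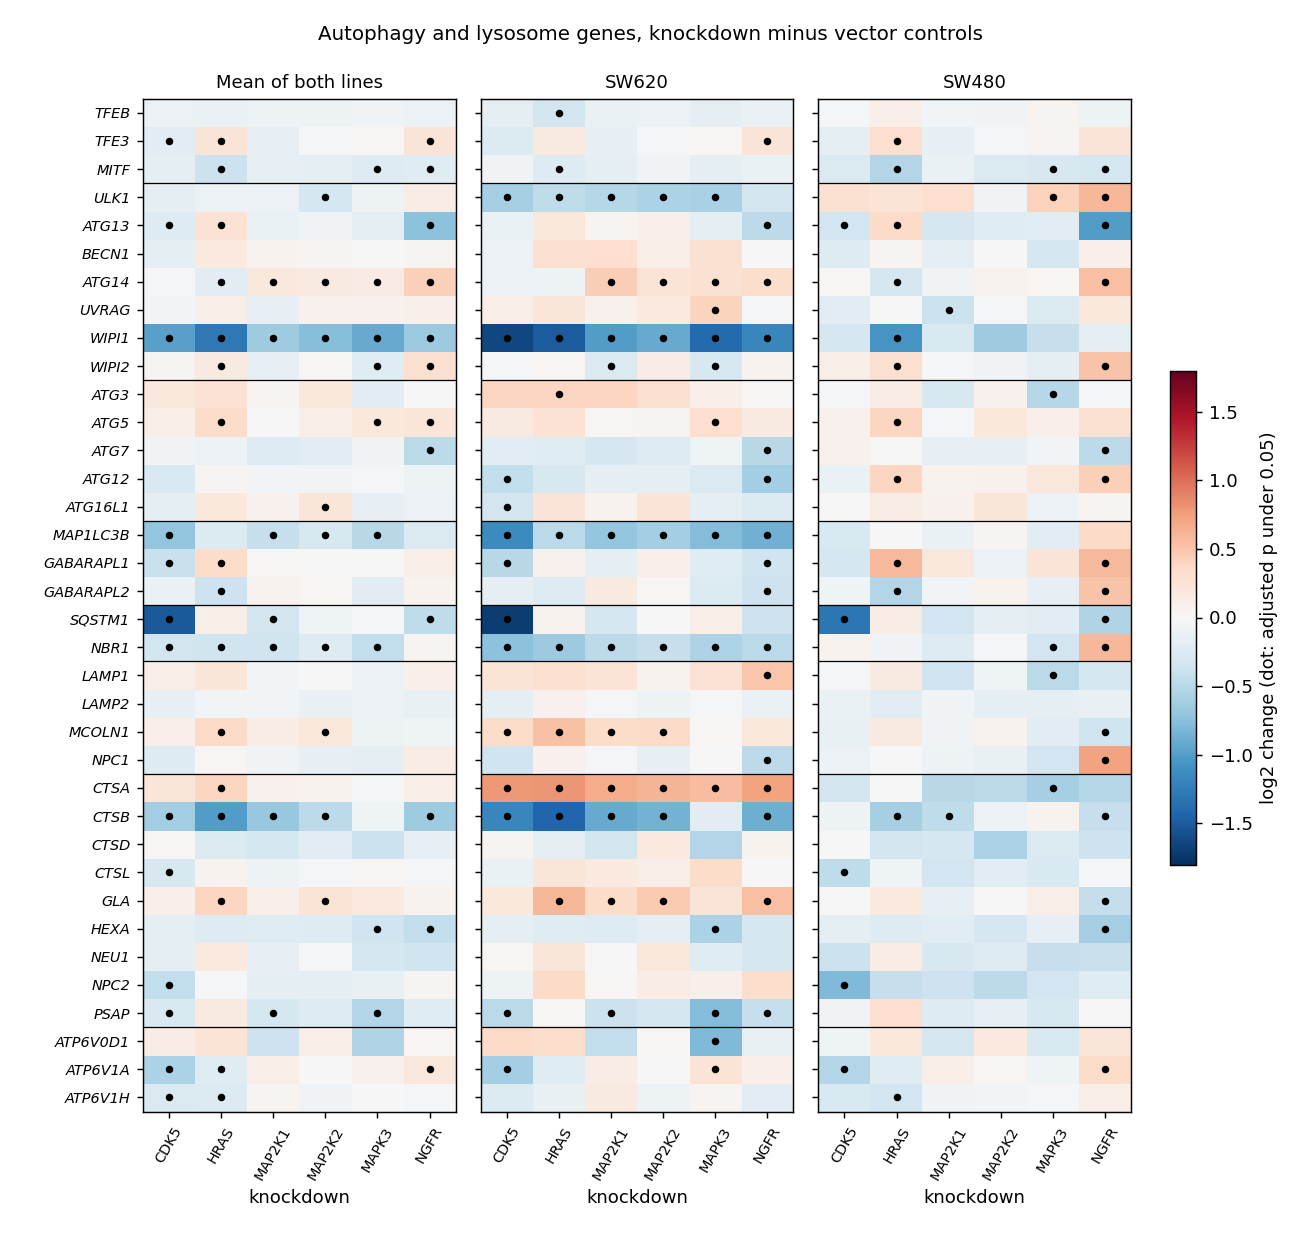
Change of each of the 36 members (rows, ordered by role) in each knockdown (columns), on the log2 scale, averaged over the lines and within SW620 and SW480, with a dot where the adjusted limma p is under 0.05. WIPI1 is lower in every column of the averaged panel, and CTSA is higher in every SW620 column and below 0 in every SW480 column.

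The lines differed in how the members moved. CTSA rose in SW620 in all 6 knockdowns, by 0.55 to 0.79, while in SW480 it stood at -0.59 to -0.01, with a fall in the MAPK3 knockdown only. The difference between the lines, SW620 minus SW480, passed the test in each knockdown: 1.11 ± 0.30 for CDK5, 0.81 ± 0.28 for HRAS, 1.17 ± 0.28 for MAP2K1, 1.09 ± 0.28 for MAP2K2, 1.14 ± 0.28 for MAPK3 and 1.23 ± 0.28 for NGFR. In replicate 2 of SW480 CTSA stood above its controls in every knockdown (0.01 to 0.98), and it stood below them in replicates 3 to 6. Against non-transduced cells the CTSA difference between the lines was 0.07 for CDK5, -0.24 for HRAS, 0.12 for MAP2K1, 0.05 for MAP2K2, 0.10 for MAPK3 and 0.19 for NGFR, and none passed the test, nor did any CTSA change in SW620 (-0.03 to 0.21). CTSA in vector controls minus non-transduced cells stood at -0.58 in SW620 and 0.46 in SW480, neither past the test. CTSA also had the next to largest gap between the lines in the vector controls, where SW620 was lower. MAP1LC3B and NBR1 fell in SW620 in all 6 knockdowns and ULK1 in 5, whereas in SW480 NBR1 rose with the NGFR hairpin (0.59) and fell with that of MAPK3 (-0.34), and ULK1 rose with the MAPK3 (0.42) and NGFR (0.60) hairpins. Against non-transduced cells no SW620 change of ULK1 (-0.17 to 0.11) or MAP1LC3B (-0.54 to 0.11) passed the test. No line difference of either passed there, with ULK1 at -0.37 for HRAS, -0.50 for MAP2K1 and -0.68 for MAPK3. MAP1LC3B differed by -0.31 for MAP2K2 and -0.86 for NGFR. In SW480 the NGFR rises of NBR1 (0.63) and ULK1 (0.71) passed it, and their MAPK3 changes (-0.30 and 0.53) did not.

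Counted by the test of the difference itself, 8 members differed between the lines in the CDK5 knockdown (3 higher and 5 lower in SW620, beside 15.6% of all genes, 6.5% higher and 9.06% lower), led by WIPI1 (-1.34 ± 0.31, adjusted p = 0.00126) and CTSB (-1.08 ± 0.18, adjusted p = 1.18e-05) on the lower side and by CTSA and NPC2 (0.70 ± 0.25, adjusted p = 0.0427) on the higher. For HRAS 9 differed (3 higher and 6 lower in SW620, beside 18.9% of all genes, 10.2% higher and 8.69% lower), led by CTSB (-0.83 ± 0.17), ULK1 (-0.70 ± 0.18), CTSA and NPC2 (0.76 ± 0.24). HRAS itself fell less in SW620 than in SW480, and the part of this in these differences was not tested. For MAP2K1 6 differed (5 higher and 1 lower in SW620, beside 11.5% of all genes, 5.64% higher and 5.9% lower), with ULK1 (-0.82 ± 0.18) lower and CTSA and ATG3 (0.67 ± 0.22), a conjugating enzyme, higher. For MAP2K2 4 differed (2 higher and 2 lower in SW620, beside 10.4% of all genes, 4.53% higher and 5.91% lower), CTSB (-0.74 ± 0.17), MAP1LC3B (-0.65 ± 0.21), CTSA and GLA (0.46 ± 0.15). For MAPK3 9 differed (6 higher and 3 lower in SW620, beside 17% of all genes, 8.17% higher and 8.83% lower), led by ULK1 (-1.0 ± 0.18), WIPI1 (-0.98 ± 0.30), CTSA and the lysosomal membrane protein LAMP1 (0.75 ± 0.23). Without the 6 arrays that stood apart the ATG3 and LAMP1 differences were 0.30 (adjusted p = 0.274) and 0.27 (adjusted p = 0.306).

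The NGFR knockdown gave the most differences, 15 (5 higher and 10 lower in SW620, beside 23.7% of all genes, 10.5% higher and 13.3% lower). NPC1, the membrane partner of NPC2 (-1.20 ± 0.23, adjusted p = 2.69e-05), and MAP1LC3B (-1.20 ± 0.21, adjusted p = 6.09e-06) led the lower side, and CTSA and GLA (0.96 ± 0.15, adjusted p = 2.52e-07) the higher. NPC1 fell by 0.47 in SW620 and rose by 0.73 in SW480. All 3 ATG8 genes differed between the lines in this knockdown, at -0.86, -0.36 and -0.38 in SW620 and 0.34, 0.58 and 0.51 in SW480 for MAP1LC3B, GABARAPL1 and GABARAPL2, of which MAP1LC3B did not pass the test in SW480. NGFR itself fell by 3.43 in SW480 and did not pass the test in SW620, and the part of this in the line differences was not tested.

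**Figure D3:**
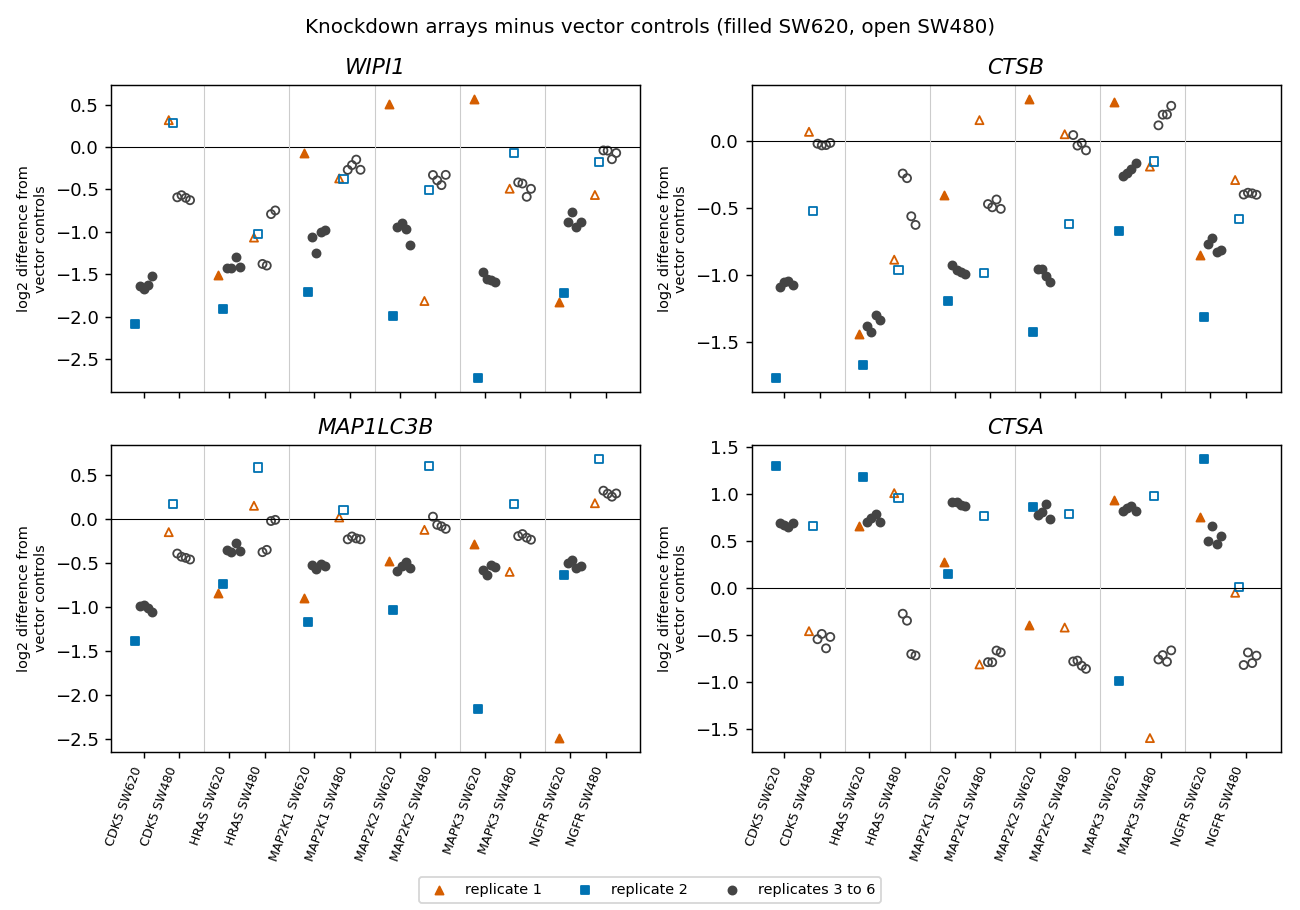
Deviation of each knockdown array from the mean of the vector controls of its line and round, on the log2 scale, for WIPI1, CTSB, MAP1LC3B and CTSA, with SW620 filled and SW480 open. CTSA lies above 0 on the SW620 arrays of replicates 3 to 6 and below 0 on the SW480 arrays of the same replicates.

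Of the 4 members that fell most often, 3 were also higher in vector controls than in non-transduced cells of SW620. In SW620, vector controls minus non-transduced cells, 3 of 36 members differed, all higher: WIPI1 (1.25 ± 0.33, adjusted p = 0.0144), CTSB (1.19 ± 0.20, adjusted p = 4.69e-05) and NBR1 (0.78 ± 0.17, adjusted p = 0.00219), beside 5.88% of all genes (4.34% higher). MAP1LC3B stood at 0.60 (adjusted p = 0.115) and SQSTM1 at 0.49 ± 0.27 (adjusted p = 0.293). Averaged over the lines only CTSB passed the test (0.76 ± 0.14, adjusted p = 7.71e-04, 1 of 36, beside 2.13% of all genes and 1.43% higher), and in SW480 none did (0 of 36 by limma, 1 at an unadjusted p under 0.05, 0% of all genes). SQSTM1 averaged over the lines stood at 0.35 ± 0.19 (adjusted p = 0.353).

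These comparisons rest on the 2 rounds that hold both kinds of array. In SW620 WIPI1 was 6.74 and 6.84 on the vector controls of replicate 1, against 4.72 on the non-transduced array, and 6.62 and 6.79 in replicate 2, against 6.20. CTSB was 11.12 on each vector control of replicate 1, against 9.25, and 11.33 and 11.05 in replicate 2, against 10.65. Each of these vector arrays was above its non-transduced array, most clearly in replicate 1. Without replicate 1 the CTSB difference averaged over the lines was 0.18 (adjusted p = 0.247). In SW620, against non-transduced cells, WIPI1 stood between -0.39 and 0.35 and NBR1 between 0.04 and 0.36 in the 6 knockdowns, and none of these values passed the test. CTSB stood between -0.23 and 0.34 in 5 knockdowns and was higher by 0.98 ± 0.21 in that of MAPK3 (adjusted p = 8.23e-04). SQSTM1 fell in the CDK5 knockdown of SW620 (-1.23 ± 0.30, adjusted p = 0.0162).

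**Figure D4:**
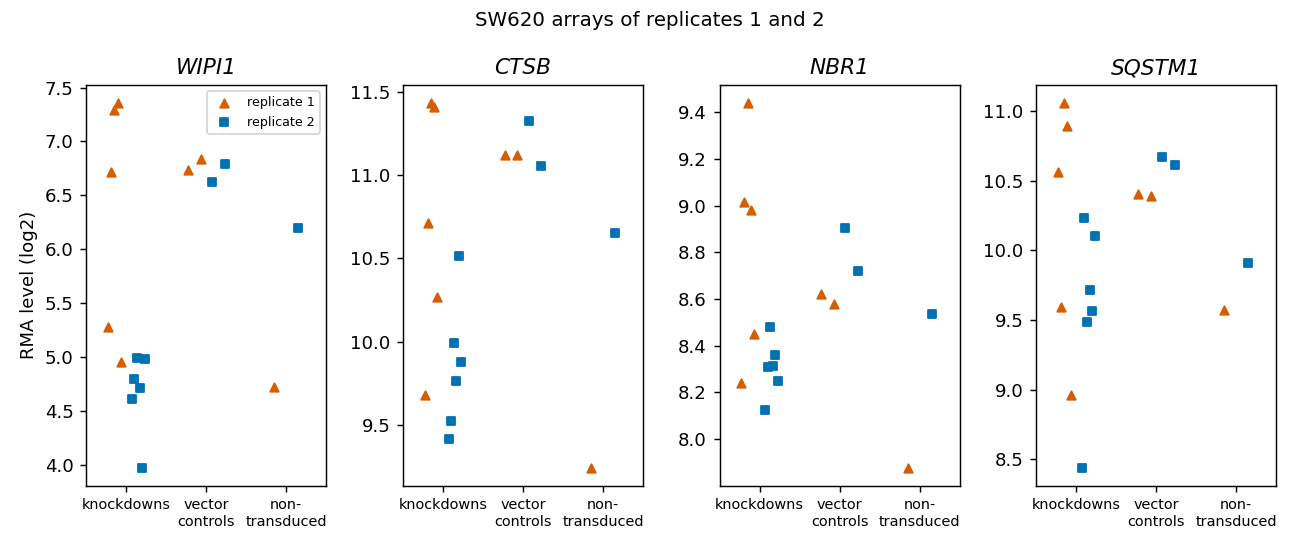
Log2 levels of WIPI1, CTSB, NBR1 and SQSTM1 on the SW620 arrays of replicates 1 and 2, with knockdowns left, vector controls in the middle and non-transduced cells right. For WIPI1 and CTSB the non-transduced arrays (4.72 and 6.20, 9.25 and 10.65) lie below every vector control and within the range of the knockdowns or just under it.

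Counts over further genes of the pathway are given for lists chosen by function, and they stand beside 19.4% of all genes called for CDK5 (8.71% higher and 10.7% lower) and 36% for HRAS (15.4% higher and 20.6% lower). Of 9 other cargo receptors 5 fell and none rose in the CDK5 knockdown, led by BNIP3L (-0.59 ± 0.13) and OPTN (-0.58 ± 0.09), both receptors for mitochondria, and TAX1BP1 (-0.46 ± 0.06). In the HRAS knockdown 6 fell, led by BNIP3L (-0.65 ± 0.12), RETREG1, a receptor for the endoplasmic reticulum (-0.46 ± 0.10), and OPTN (-0.43 ± 0.09). The counts of falls were 4 for MAP2K1, 5 for MAP2K2, 7 for MAPK3 and 1 for NGFR, where 1 also rose, beside falls of 7.82%, 11.2%, 14% and 14.6% of all genes. Of 24 further genes of the autophagy machinery 5 fell and none rose with the CDK5 hairpin, led by WDR45, a relative of the WIPI proteins (-0.83 ± 0.11), RB1CC1, a subunit of the ULK1 complex (-0.41 ± 0.09), and the protease ATG4C (-0.27 ± 0.10). With the HRAS hairpin 9 fell, led by RB1CC1 (-1.13 ± 0.09), ATG10 (-0.60 ± 0.10) and ATG4C (-0.53 ± 0.10), and ATG4B (0.28 ± 0.07) and AMBRA1 (0.14 ± 0.06) rose.

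Of 30 further lysosomal enzymes and membrane proteins 5 fell and 3 rose in the CDK5 knockdown and 16 fell and 3 rose in that of HRAS, which is 26.7% and 63.3% of the list. The peptidase TPP1 (-0.70 ± 0.10), the lipase LIPA (-0.59 ± 0.11) and MANBA (-0.24 ± 0.08), a mannosidase, led the CDK5 falls, and CTSC (0.39 ± 0.12), GUSB (0.31 ± 0.09) and LAPTM4B (0.19 ± 0.06) were its rises. LIPA (-1.44 ± 0.11), the protease LGMN (-1.06 ± 0.08) and CD164 (-0.75 ± 0.06) led the HRAS falls, and SGSH (0.58 ± 0.13), LAPTM4B (0.25 ± 0.06) and ARSB (0.23 ± 0.09) rose. Of 11 other proton pump subunits none passed the test with the CDK5 hairpin (0 of 11 by limma, 1 at an unadjusted p under 0.05) and 1 fell with the HRAS hairpin, ATP6AP2 (-0.31 ± 0.07).

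Of 16 genes that control MTORC1 and TFEB, 1 rose, MTOR (0.28 ± 0.07), and 1 fell, RRAGD (-0.26 ± 0.10), in the CDK5 knockdown. In the HRAS knockdown 3 rose, RRAGC (0.51 ± 0.11), FLCN (0.43 ± 0.12) and RPTOR (0.27 ± 0.07), and 7 fell, led by RRAGD (-0.70 ± 0.09), LAMTOR5 (-0.63 ± 0.09) and FNIP2 (-0.56 ± 0.12). SQSTM1 is itself a target of NRF2, whose gene is NFE2L2, and of 11 genes of that pathway 2 fell in the CDK5 knockdown, SLC7A11 (-1.22 ± 0.18) and GCLC (-0.25 ± 0.07), while KEAP1, the inhibitor of NRF2, rose (0.35 ± 0.09). In the HRAS knockdown SLC7A11 (-1.06 ± 0.18), NFE2L2 (-0.47 ± 0.10) and GCLC (-0.16 ± 0.06) fell, and 4 rose, led by GCLM (0.41 ± 0.11), TXNRD1 (0.41 ± 0.08) and KEAP1 (0.37 ± 0.09). SQSTM1 itself stood at 0.10 in that knockdown and did not pass the test. The part of NRF2 in the SQSTM1 values was not tested.

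The 8 members with CACGTG in the promoter window and the 21 without it had unlike counts in the CDK5 knockdown when the lines were averaged, where 8.71% of all genes rose and 10.7% fell. None of the 8 passed the test there, with a median change of 0.10, and 9 of the 21 fell, with a median of -0.20. The contrast lay mostly in SW620, where 2 of the 8 rose (median 0.28) and 8 of the 21 fell (median -0.20). In SW480 0 of the 8 passed the test (median -0.06) and 4 of the 21 fell (median -0.12). The shares of all genes within lines are given above. In the HRAS knockdown, averaged over the lines, 2 of the 8 rose and 1 fell (median 0.24), and 6 of the 21 rose and 4 fell (median 0.05). In the other 4 knockdowns, averaged over the lines, 5 calls among the 8 were rises, 1 each for MAP2K1, MAPK3 and NGFR and 2 for MAP2K2, of which 4 were of ATG14, and none was a fall. Within lines falls among the 8 did occur, 1 for HRAS in SW480, 3 for MAPK3 in SW480, 1 for MAPK3 in SW620 and 1 for NGFR in SW480. In SW620 2 of the 8 rose for CDK5 and for MAPK3, and 3 each for HRAS, MAP2K1, MAP2K2 and NGFR. CTSA was among these rises in all 6 knockdowns, and against non-transduced cells no CTSA rise in SW620 passed the test. Among the 21, averaged over the lines, the falls numbered 4, 4, 5 and 5 and the rises 0, 2, 1 and 3 for MAP2K1, MAP2K2, MAPK3 and NGFR. The median was lower among the 8 than among the 21 for MAPK3 (-0.16, against -0.09) and NGFR (0.02, against 0.05). These counts describe 29 genes and were not tested, and the 7 members UVRAG, LAMP2, CTSB, HEXA, PSAP, ATP6V1A and ATP6V1H are outside them.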

How the data were processed

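The deposited values are log2 expression levels per probe set, which the authors made with RMA per the labels, with no version given in the sources used here, and they were used as deposited. Of 54675 probe sets 41097 name 1 gene, 1801 several and 11777 none by the platform annotation, and 41043 symbols were brought up to date by gene identifier. For each of 19775 genes the probe set with the highest mean over the 101 arrays was taken, and 10523 genes had more than 1. Array medians lay between 5.05 and 5.28. The number of arrays limits the precision.

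Groups came from the labels. One linear model over all arrays, with group and round within line as terms, was fitted in R 4.3.3 by limma 3.58.1, whose moderated variances allowed for a trend and for outlying genes. P-values are two-sided, adjusted by Benjamini-Hochberg across all genes, and called under 0.05. Tables were read with data.table (1.17.8), and figures were drawn with Python 3.11.15, numpy 2.4.6, pandas 2.3.3 and matplotlib 3.10.9. The fit was tested on simulated data with independent noise, of the same spread on all arrays for a given gene. That test could not show the effect of rounds with unlike spread or of shared cultures.

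The members, lists, rules and tests were chosen with earlier results of these data known. Named with full statistics were SQSTM1 in every comparison, of the members called in each knockdown the 4 that rose most and the 4 that fell most, the 2 largest each way in each line and control comparison, and, of the further lists, the 3 largest each way for CDK5 and HRAS. Other members named for their values were chosen after those were seen. Of the further lists, only measured genes are counted.

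The replicate numbers were checked for pairing. Deviations of arrays with the same number and line correlated in all 329 pairs (0.219 to 0.967), but within replicates 3 to 6 the median was -0.01 (30 of 224 over 0.1). The numbers thus pair arrays through the round, which the fit carries as a term, and a replicate block was an alternative. The other alternatives were no round term, either vector control by itself, probe sets averaged per gene, dim genes (below the 40th percentile) left out, another quantile normalization, arrays averaged in pairs by name ending (A1 with A2, B1 with B2), replicates 3 to 6 only and each replicate left out. Chosen after seeing the data were runs without the 3 arrays of degraded RNA, the 3 SW480 arrays toward SW620 or all 6, replicates 1 and 2 only, and non-transduced cells as control. The non-transduced replicate 7 is called replicate 4 in another label. The series description speaks of more targets than the 6 analysed here.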

Additional observations from a re-analysis of the deposited data

Results flagged for a closer look

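Of 32 groups of 5 or 6 arrays, 16 held an array far from the others of its group, each from replicate 1 or 2. Chance would flag about 1 in 20 groups only if all arrays of a group spread alike. Replicates 1 and 2 are each a round of their own, while the other arrays of a group share 1 round. The design alone can thus single out replicate 1 or 2, and the count cannot be set against that rate. Values are log2 deviations from the vector controls of the same line and round. For SQSTM1 these were SW480 replicate 2 (-0.32) and SW620 replicate 2 (-2.20) of the CDK5 knockdown, SW620 replicate 2 of the HRAS (-0.41), MAP2K2 (-0.93) and MAPK3 (-1.08) knockdowns and SW480 replicate 2 of the MAP2K1 knockdown (0.61). For WIPI1 they were SW620 replicate 2 of the HRAS knockdown (-1.91), SW480 replicate 1 of the MAP2K2 knockdown (-1.82) and SW480 replicate 2 of the MAPK3 knockdown (-0.073). GLA in replicate 2 of the MAP2K2 knockdown stood at 1.07 in SW620 and 0.56 in SW480. CTSA stood at 1.18 on SW620 replicate 2 of the HRAS knockdown and CTSB at -0.41 on SW620 replicate 1 of the MAP2K1 knockdown. ATG5 stood at 1.01 on SW620 replicate 2 of the MAPK3 knockdown. On SW620 replicate 1 of the NGFR knockdown ATG14 stood at 0.79 and ATG13 at -1.02. The MAPK3 and NGFR arrays of SW620 named here for SQSTM1, ATG5, ATG14 and ATG13 are those of degraded RNA, and the part of RNA quality in these values was not tested.

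The lines differed by the test of the difference itself, SW620 change minus SW480 change, for 23 named results. CTSA differed in each knockdown, by 1.11 for CDK5, 0.81 for HRAS, 1.17 for MAP2K1, 1.09 for MAP2K2, 1.14 for MAPK3 and 1.23 for NGFR, but against non-transduced cells by -0.24 to 0.19 with no call. WIPI1 differed for CDK5 (-1.34) and MAPK3 (-0.98), CTSB for CDK5 (-1.08), HRAS (-0.83) and MAP2K2 (-0.74), and ULK1 for HRAS (-0.70), MAP2K1 (-0.82) and MAPK3 (-1.0). MAP1LC3B differed for MAP2K2 (-0.65) and NGFR (-1.20), and NPC1 for NGFR (-1.20). Against non-transduced cells these ULK1 differences were -0.68 to -0.37 and these MAP1LC3B differences -0.86 and -0.31, with no call. NPC2 differed for CDK5 (0.70) and HRAS (0.76), GLA for MAP2K2 (0.46) and NGFR (0.96), ATG3 for MAP2K1 (0.67) and LAMP1 for MAPK3 (0.75).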

How the results depend on the processing

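SQSTM1 in the CDK5 knockdown kept its direction under every alternative, at -1.55 to -1.49 with each replicate left out, and lost its call only within replicates 1 and 2 (-1.42, adjusted p = 0.814). Counts of changed members are given in the order CDK5, HRAS, MAP2K1, MAP2K2, MAPK3, NGFR, against 13, 16, 7, 9, 9 and 12, and counts of members differing between the lines against 8, 9, 6, 4, 9 and 15. Within replicates 3 to 6 they were 28, 26, 20, 24, 25 and 26, and between lines 25, 31, 27, 24, 27 and 27, with 43.4%, 53.8%, 39.3%, 43.6%, 49.1% and 53.3% of all genes called by knockdown, 41.7% to 50.2% between lines, and 6 members between the non-target hairpin and the empty vector. All calls given above for changed members were shared there. SQSTM1 was then called for MAP2K2 (-0.18) and MAPK3 (0.083, turned from -0.04). Within replicates 1 and 2 they were 0, 1, 0, 0, 0 and 1 (at most 2.85% of all genes), and between lines 0 in each, with 5 of 25 members between the lines' vector controls, 0 for vector controls minus non-transduced cells, and SQSTM1 at -0.57 for MAP2K1 and -0.58 for NGFR. Without a round term they were 6, 5, 2, 1, 3 and 5 (1.66% to 12.8% of all genes), and between lines 4, 0, 1, 1, 2 and 5, with 0 for vector controls minus non-transduced cells and no SQSTM1 call for MAP2K1 (-0.33) or NGFR (-0.46). With arrays averaged in pairs they were 5, 8, 1, 2 and 5 (3.09% to 21.5% of all genes), with NGFR within 1.5 times, and between lines 1, 0, 0, 0, 1 and 8, with 0 for vector controls minus non-transduced cells and SQSTM1 at -0.39 for MAP2K1 and -0.49 for NGFR. Against non-transduced cells they were 2, 6, 1, 0, 2 and 6 (2.78% to 15.6% of all genes), and between lines 0, 1, 0, 0, 0 and 1. There SQSTM1 stood at 0.021 for MAP2K1 and -0.11 for NGFR, CTSB at 0.12 (CDK5), 0.073 (MAP2K1), 0.28 (MAP2K2) and 0.11 (NGFR), MAP1LC3B at 0.017 (MAP2K1) and 0.15 (MAP2K2) and NBR1 at 0.055 (MAP2K1). The line differences that turned there were WIPI1 for CDK5 (0.31) and MAPK3 (0.67), CTSB for HRAS (0.036) and MAP2K2 (0.13) and CTSA for HRAS (-0.24), which was -0.065 within replicates 1 and 2. Averaged over the lines CTSB for HRAS lost its call against non-transduced cells (-0.25). With the empty vector alone MAP2K2 and MAPK3 gave 5 each and SQSTM1 -0.30 for MAP2K1. With the non-target hairpin alone MAP2K2 gave 5, the line counts other than NGFR were 5, 4, 3, 2 and 4, and SQSTM1 was -0.35 for MAP2K1. Without all 6 arrays that stand apart HRAS gave 25 (45.1% of all genes) and MAPK3 15 (32.7%), the line counts were 14 (CDK5, 27%), 15 (HRAS, 30.5%) and 8 (MAP2K2, 18.6%), vector controls minus non-transduced cells 7 (7.08%) and SQSTM1 -0.19 for MAP2K1. Without the SW480 arrays toward SW620 MAP2K2 gave 5, vector controls minus non-transduced cells 2 and SQSTM1 -0.24 for MAP2K1. Without the degraded arrays these last were 4 and -0.28, and without dim genes vector controls minus non-transduced cells gave 2. ATG5 for MAPK3 turned to -0.31 with the mean of all probe sets.

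With the replicate block in place of rounds SQSTM1 for MAP2K1 stayed at -0.33 without its call (adjusted p = 0.0639), as did 5 of 66 named calls, and no count moved by over 1.5 times. Of the 66 named calls 35 ended without a round term, 34 with arrays averaged in pairs and 21 without replicate 3. Within replicates 1 and 2 61 ended and 1 turned in direction. Against non-transduced cells 38 of 61 ended and 12 turned in direction. Within replicates 3 to 6 all 65 named calls fitted there were kept. With each replicate left out in turn, changed members numbered 8 to 17 (CDK5), 4 to 14 (MAP2K1), 3 to 11 (MAP2K2) and 6 to 14 (MAPK3), line differences 1 to 17 (HRAS), 2 to 17 (MAP2K1), 0 to 10 (MAP2K2) and 3 to 14 (MAPK3), and vector controls minus non-transduced cells 1 to 7, with SQSTM1 at -0.36 to -0.22 for MAP2K1. Leaving out replicate 1 gave the highest of these counts, tied with replicate 2 for CDK5, other than for vector controls minus non-transduced cells (replicate 2), and leaving out 1 of replicates 3 to 6 gave the lowest, also where SQSTM1 for MAP2K1 lost its call. The cause of these shifts was not tested, and few arrays limit replicates 1 and 2.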
